A study of Mus musculus with 35 samples.

Results

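The glutathione and NRF2 antioxidant genes were followed across sorted mouse liver macrophages: Nfe2l2, Keap1, Slc7a11, Gclc, Gclm, Gsr, Txnrd1, Srxn1, Prdx1 and Nqo1. They were chosen by name, as the sensor, the transcription factor and the textbook enzymes of one pathway, and they are 10 of the 54735 genes counted in each library. All 10 passed the filter on low counts (over 1 CPM, counts per 1000000 of the scaled library, in at least 5 of 35 libraries), as did 13421 genes in all. Slc7a11 passed through the groups in which it was high, so that its difference between populations was in part fixed by the filter.

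NRF2, the protein of Nfe2l2, is a transcription factor that is held in the cytosol and marked for degradation by KEAP1. Oxidants and electrophiles modify cysteines of KEAP1, and NRF2 then enters the nucleus, pairs with a small MAF protein and binds antioxidant response elements (ARE) near its targets. These targets make and recycle glutathione, reduce thioredoxin and peroxiredoxins, detoxify quinones and handle haem and iron. Macrophages of the liver take up red cells and gut-derived material and produce oxidants themselves, which is why this programme is of interest in them.

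Bulk RNA sequencing was done on macrophages sorted from livers of male C57BL/6J mice that were placed, from 5 weeks of age, on a standard diet (SD) or on a western diet (WD) rich in fat and cholesterol with sugar in the drinking water, a model of fatty liver disease. Resident Kupffer cells (ResKCs, CLEC4F+TIM4+) were taken after 12 weeks of SD (n = 7) or WD (n = 5) and after 24 weeks of SD (n = 6) or WD (n = 6). Monocyte-derived Kupffer cells (moKCs, CLEC4F+TIM4-, n = 5) and macrophages without CLEC4F (CLEC4F- macs, CLEC4F-TIM4-, n = 6) were taken after 24 weeks of WD, with no SD counterpart. The mice carried no engineered allele according to the labels, and each population is defined by its surface gate alone. For the 5 WD libraries at 12 weeks, 1 label field named the standard diet, whereas title and description named the western diet, which was followed. The labels do not say whether libraries of one number came from one mouse, and p-values measure the spread between libraries.

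Libraries held 11568590 to 15163845 counts, at which 3 counts equal 0.19 to 0.26 CPM. Summed macrophage markers (Adgre1, Fcgr1, Csf1r, Cd68) ranged from 5319 CPM in the lowest CLEC4F- mac library to 16231 CPM in the highest ResKC library. Hepatocyte transcripts were present in every library, with a sum over 10 genes of 437 to 3369 CPM. CLEC4F- mac replicate 1 stood apart, with 103 CPM of B cell markers against at most 19.7 CPM in every other library. CLEC4F- mac replicate 4 stood apart too, with 12198 CPM of ResKC markers (the 5 others 1295 to 5550 CPM) and 440 CPM of CLEC4F- mac markers (the 5 others 992 to 1597 CPM). The third was moKC replicate 1, with 17.8 CPM of CLEC4F- mac markers (the 4 others 53.7 to 71.9 CPM) and 1333 CPM of endothelial markers (the 4 others 486 to 1049 CPM). In bulk samples, a lower level cannot be told apart from fewer cells that carry the transcript. The sample names in the file headers followed 2 forms, in 22 and 13 libraries, whose meaning is not given. All SD libraries at 24 weeks and all WD libraries at 12 weeks had the first form.

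The core letters of the ARE, TGACNNNGC, were searched on both strands of RefSeq promoter windows (GRCm38.p6, 250 bases before to 50 after the start site). Windows were found for 8 of the 10 genes (10 windows, 3 of them for Txnrd1), whereas Gclc and Gsr were not matched. The letters were in a window of 5 genes, Nfe2l2, Gclm, Txnrd1, Prdx1 and Srxn1, and they occurred in 12.4% of all 32851 windows. Below are the stretches around the match for 4 of them, 5′ to 3′ on the strand of the gene, with the matching letters in capitals; they show that spacer and flanks differ although the core is shared. In Gclm, Txnrd1 and Prdx1 the match lies on the opposite strand and reads as its reverse complement.
Nfe2l2, chr2:75704865-75704913, minus strand: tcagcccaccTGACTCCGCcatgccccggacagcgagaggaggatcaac
Gclm, chr3:122245393-122245461, plus strand: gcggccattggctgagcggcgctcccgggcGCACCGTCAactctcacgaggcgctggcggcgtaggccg
Txnrd1, chr10:82859084-82859152, plus strand: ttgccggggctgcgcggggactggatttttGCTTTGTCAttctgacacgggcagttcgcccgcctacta
Prdx1, chr4:116685436-116685504, plus strand: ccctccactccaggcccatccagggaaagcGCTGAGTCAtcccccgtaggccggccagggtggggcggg
The match began 240 bases before the start site in Nfe2l2, 134 in Gclm, 133 in Prdx1 and 92 in the Txnrd1 window, and at base 29 after it in Srxn1, where it read GCTAGGTCA. With an A required after these letters, only the Txnrd1 window matched, against 3.04% of all windows. A match describes letters in a window and is not a measured binding site, and the windows of Keap1, Slc7a11 and Nqo1 held no match.

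The levels of the 10 genes spanned a wide range. Per kilobase of merged exons, Prdx1, a peroxiredoxin that removes hydrogen peroxide, was the highest in all 6 groups, at 353 to 418 CPM per kb. Gsr, which reduces oxidised glutathione, and Nfe2l2 itself followed, at 57.5 to 111 and 65.9 to 87.1 CPM per kb. Txnrd1, the cytosolic thioredoxin reductase, stood at 31.5 to 57.0 CPM per kb. Gclc and Gclm, the catalytic and modifier subunits of the glutamate-cysteine ligase that limits glutathione synthesis, Keap1 and Srxn1, the sulfiredoxin that repairs over-oxidised peroxiredoxins, all lay between 12.8 and 26.6 CPM per kb. Nqo1, the quinone reductase often used as the readout of NRF2 activity, stood at 0.482 to 1.25 CPM per kb, and Slc7a11, the cystine importer, was the lowest in each group, at 0.00303 to 1.05 CPM per kb. Thus these macrophages held far more transcript of the thioredoxin and glutathione reductases than of Nqo1.

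**Figure D1:**
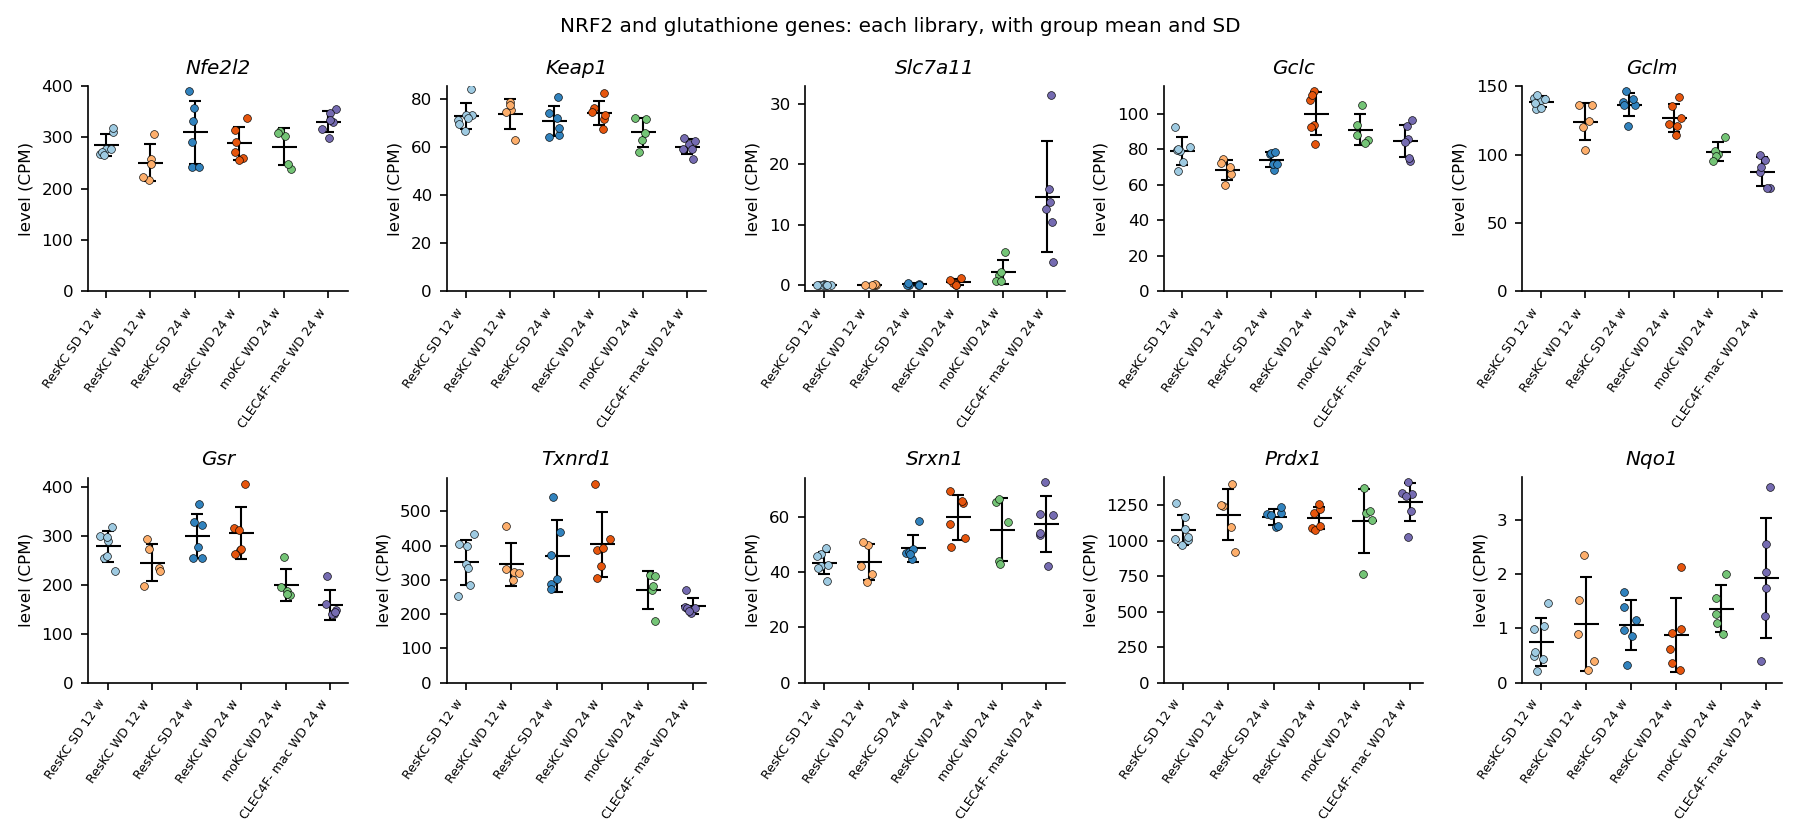
Level in CPM (vertical axes, linear) of each of the 10 genes in each of the 35 libraries, by group (horizontal axes: ResKCs on SD or WD at 12 or 24 weeks, moKCs and CLEC4F- macs on WD at 24 weeks); points are libraries, bars the mean and SD. Gclc is highest in ResKCs on WD at 24 weeks, Gclm, Gsr and Txnrd1 step down from ResKCs to CLEC4F- macs, and Slc7a11 is at 3.87 to 31.3 CPM in CLEC4F- macs and at most 1.23 CPM in ResKCs.

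The first question was whether WD changed these genes in ResKCs. At 24 weeks, Gclc (chr9:77754535-77794485, plus strand, mm10) was the 1 gene of the 10 that rose. In SD ResKCs it had 68.2, 74.5 and 78.6 CPM as lowest, median and highest library, and in WD ResKCs 83.2, 101 and 113 CPM. Each of the 6 WD libraries lay above all 6 SD libraries. The mean rose from 74.2 ± 4.28 to 100 ± 12.0 CPM (SD, n = 6 and 6), a log2 fold change of 0.43 (SE 0.08, edgeR quasi-likelihood test, adjusted p = 0.00102), or 1.35-fold. None of the 10 was called lower by edgeR, DESeq2 or limma-voom, and at an unadjusted p under 0.05, 3 were higher (Gclc, Srxn1 and Slc7a11) and 0 lower. Over all genes tested, 4.84% were called higher and 3.87% lower, so that 1 of 10 is not far from the background. At the unadjusted limit, 3331 of all 13421 genes passed in either direction. Among libraries with the first form of header name (3 WD and 6 SD), the log2 fold change of Gclc was 0.38 (edgeR, adjusted p = 0.026).

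The other subunit of the ligase was not called. Gclm (chr3:122245557-122270732, plus strand) had 121, 137 and 147 CPM as lowest, median and highest SD library and 114, 124 and 142 CPM on WD. The groups overlapped, and the log2 fold change was -0.11 (SE 0.07, edgeR, adjusted p = 0.377). Exons of Gclm overlap a pseudogene, Gm6061, on the same strand and the transcript Gm17494 on the opposite strand, so that part of its reads may be shared. Among the downstream enzymes, Srxn1 (chr2:152105516-152111376, plus strand) came nearest to the threshold. It had 44.8, 47.1 and 58.5 CPM on SD and 49.3, 61.4 and 69.5 CPM on WD, with 3 of 6 WD libraries above all SD libraries. Its log2 fold change was 0.30 (SE 0.12, edgeR, adjusted p = 0.108), and it passed at 0.38 (adjusted p = 0.0429) when libraries were scaled by their total alone.

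The remaining members overlapped between the diets. Nfe2l2 (chr2:75675513-75704641, minus strand) had 243 to 391 CPM on SD and 255 to 338 CPM on WD, and Keap1 (chr9:21229730-21239361, minus strand) 64.2 to 80.6 and 67.4 to 82.2 CPM. Gsr (chr8:33652523-33698163, plus strand) had 254 to 364 CPM on SD and 263 to 405 CPM on WD. Txnrd1 (chr10:82833951-82897712, plus strand) ranged from 273 to 541 CPM on SD and from 306 to 578 CPM on WD, the widest spread among the abundant members. The log2 fold changes of these 4 genes lay between -0.10 and 0.13, with adjusted p of 0.558 to 0.921 in edgeR. Prdx1 (chr4:116685544-116700822, plus strand) averaged 1158 ± 77.0 CPM on WD and 1167 ± 55.8 CPM on SD. Its value is uncertain because a processed copy, Gm21399, is identical to it in 98.3% of 597 aligned bases, and reads may have been split between them.

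Both low genes stayed near the limit of counting in ResKCs. Nqo1 (chr8:107388225-107403206, minus strand) had 4 to 23 counts in the SD libraries at 24 weeks and 3 to 27 counts on WD, or 0.326 to 1.66 and 0.226 to 2.13 CPM. Slc7a11 (chr3:49892526-50443614, minus strand) had 0 to 5 counts on SD and 0 to 16 counts on WD. Its level was 0.0702, 0.0724, 0.226, 0.0815, 0 and 0.361 CPM in SD replicates 1 to 6, and 0.0725, 0.307, 1.23, 0.376, 0 and 0.867 CPM in WD replicates 1 to 6. Of the WD libraries, 3 lay above all SD libraries, and the test did not pass (edgeR, adjusted p = 0.161). As the SD mean is below the level of 3 counts, no fold is given.

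After 12 weeks of WD none of the 10 genes was called in either direction by edgeR, DESeq2 or limma-voom. Over all genes, 0.0149% were called higher and 0.0224% lower. At an unadjusted p under 0.05, 0 of the 10 were higher and 2 were lower, Gclc and Gclm. Of all 13421 genes, 1172 passed at that limit in either direction. Gclc had 74.5, 66.1, 69.9, 72.2 and 60.2 CPM in WD replicates 1 to 5, against 67.6, 79.6 and 92.7 CPM as lowest, median and highest SD library. Its log2 fold change was -0.21 (SE 0.08, edgeR, adjusted p = 0.484), or -0.17 (adjusted p = 0.536) among libraries with the first form of header name. Gclm had 124, 104, 136, 136 and 120 CPM on WD and 133 to 144 CPM on SD, a log2 fold change of -0.16 (SE 0.07, edgeR, adjusted p = 0.531). For Slc7a11, with 0 to 2 counts per library in both groups, no fold is given.

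The log2 fold change of Gclc was thus positive at 24 weeks and negative at 12 weeks, and the former alone passed. The diet effect at 24 weeks exceeded that at 12 weeks by 0.64 on the log2 scale (SE 0.12, edgeR, adjusted p = 0.00934). Gclc was the 1 member called for this difference, where 0.0671% of all genes were called in that direction and 0.216% in the other. The second largest difference among the abundant members was that of Srxn1, at 0.29 (SE 0.17, edgeR, adjusted p = 0.458). Among libraries with the first form of header name the Gclc difference was 0.55 (SE 0.15), which did not pass (edgeR, adjusted p = 0.113). In SD ResKCs, the 24 and 12 week groups were compared for time itself, and edgeR called none of the 10 genes and 0% of all genes in either direction. None of the 10 had an unadjusted p under 0.05 there (1208 of all 13421 genes had), and DESeq2 and limma-voom called none of the 10. The Gclc log2 fold change was -0.09 (SE 0.08, edgeR, adjusted p = 0.767).

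Other transcripts moved with the diet at 24 weeks beside Gclc. Of the 10 hepatocyte markers, 9 had a positive log2 fold change on WD and 1 was called higher, with a median log2 fold change of 0.93. Their sum was 457 to 1342 CPM on SD and 999 to 3366 CPM on WD. Within groups, Gclc followed the hepatocyte list: over 35 libraries, deviations from the group means had a Pearson r of 0.53 (permutation test, 100000 resamples within groups, two-sided, adjusted p = 0.045 over 20 relations with this list and the next) and a Spearman rho of 0.56 (adjusted p = 0.0274). Without the 2 libraries farthest from the median of Gclc, r was 0.52, and it was 0.62 and 0.50 in the 22 and 13 libraries of either header form. The other 19 relations did not pass. With the mean of the hepatocyte list as a covariate, the Gclc log2 fold change was 0.35 (edgeR, adjusted p = 0.00575). Among 10 immediate-early and heat-shock genes that respond to tissue dissociation, 7 were called lower on WD, with a median log2 fold change of -1.71. With the mean of this list as a covariate, the Gclc log2 fold change was 0.37 (adjusted p = 0.0241). Markers of other cells moved as well. Of 4 CLEC4F- mac markers, 1 was called higher (Spp1, which is also the 1 cholangiocyte marker tested), and their sum was 4.54 to 16.2 CPM on SD and 9.82 to 53.9 CPM on WD. Of 3 dendritic cell markers tested, 1 was called higher, at a sum of 1.59 to 4.78 and 5.13 to 9.05 CPM. Of 6 endothelial markers, 1 was called lower, at a sum of 714 to 1555 CPM on SD and 465 to 878 CPM on WD, and of 6 stellate cell markers 1 was called lower. The part of these markers in the Gclc result was not tested.

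**Figure D2:**
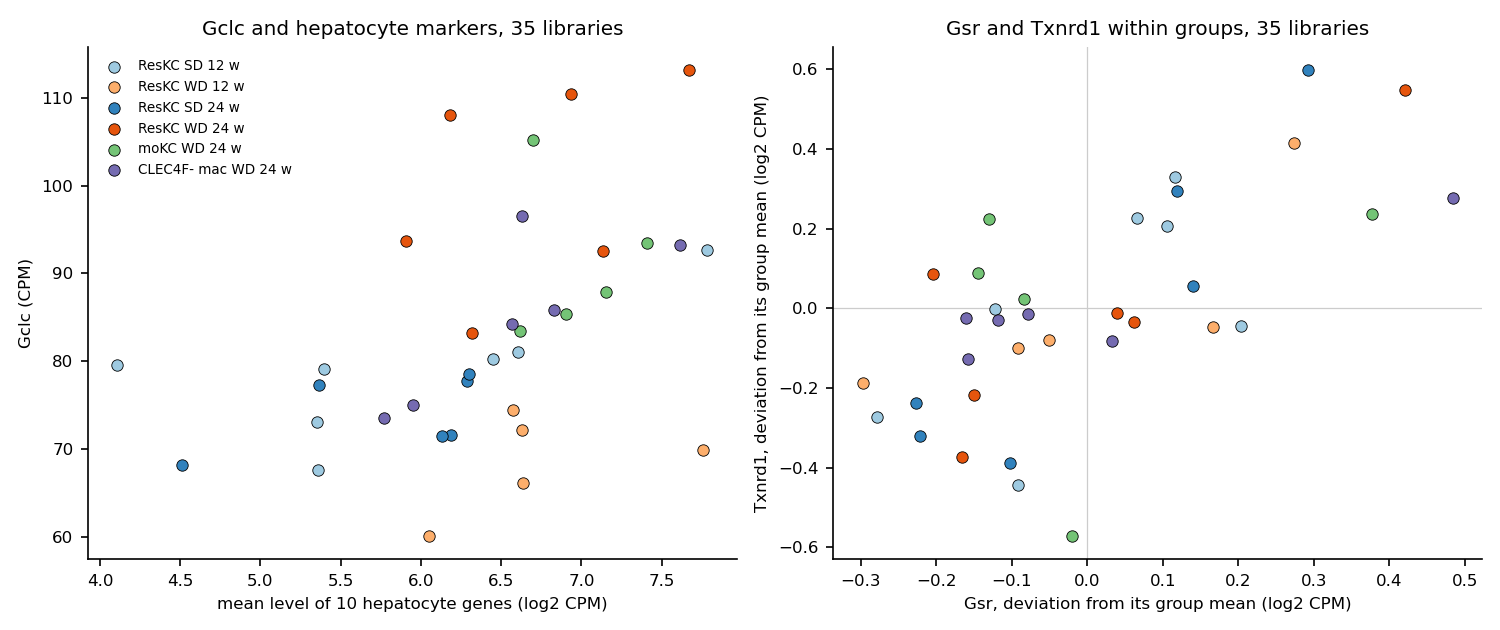
Left, Gclc (CPM) against the mean level of 10 hepatocyte genes (log2 CPM) in 35 libraries coloured by group. Right, Txnrd1 against Gsr, each as the deviation from its group mean (log2 CPM) in the same libraries and colours. The 6 libraries of ResKCs on WD at 24 weeks lie at 83.2 to 113 CPM of Gclc, above the SD libraries of that time, 4 of them at hepatocyte levels above the SD range, and within groups Gsr and Txnrd1 rise together (r = 0.68).

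The second question was how the 3 macrophage populations of the 24 week WD livers differ. ResKCs held more of the glutathione and thioredoxin reductases and of the modifier subunit of the ligase than CLEC4F- macs. The catalytic subunit, Gclc, was called too, but that call depended on single libraries and settings. Over all genes, 17.0% were called higher in ResKCs and 16.1% lower. Of the 10 genes, 5 were higher (Gsr, Txnrd1, Gclm, Keap1 and Gclc) and 1 was lower, Slc7a11, whose call is in part set by the filter. Without CLEC4F- mac replicate 1 these were 4 and 1, and without replicate 4 they were 5 and 1. Other markers moved with this comparison: 3 of 4 macrophage, 2 of 6 endothelial and 1 of 10 hepatocyte markers were higher in ResKCs. Lower in ResKCs were 3 of 3 B cell, 3 of 6 stellate cell and 1 of 3 dendritic cell markers and the 1 cholangiocyte marker tested. The part of these markers in the members' values was not tested. The median log2 fold change was 0.15 over the 10 genes and -0.02 over all genes.

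Gsr had 263, 292 and 405 CPM as lowest, median and highest ResKC library. In CLEC4F- macs it had 140, 146 and 218 CPM. All 6 ResKC libraries lay above all 6 CLEC4F- mac libraries. The means were 306 ± 53.4 and 158 ± 30.4 CPM, a log2 fold change of 0.95 (SE 0.13, edgeR, adjusted p = 2.68e-07). Within the first and second header form it was 1.21 (adjusted p = 2.58e-06) and 0.70 (adjusted p = 0.00477). The highest CLEC4F- mac library was replicate 4, and without it the value was 1.07 (adjusted p = 1.4e-08).

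Txnrd1 showed the same order, with 306, 389 and 578 CPM in ResKCs and 204, 218 and 269 CPM in CLEC4F- macs. The groups did not overlap, and the log2 fold change was 0.86 (SE 0.16, edgeR, adjusted p = 9.36e-05). By header form it was 0.98 (adjusted p = 8e-04) and 0.73 (adjusted p = 0.0201). Again CLEC4F- mac replicate 4 was the highest of its group, and without it the value was 0.92 (adjusted p = 7.41e-05).

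Gclm had 114, 124 and 142 CPM in ResKCs and 75.3, 89.3 and 99.98 CPM in CLEC4F- macs. Again no library overlapped, at a log2 fold change of 0.54 (SE 0.07, edgeR, adjusted p = 3.67e-07), with 0.67 (adjusted p = 6.31e-06) and 0.40 (adjusted p = 0.00657) by header form. Keap1 differed less, with 67.4, 73.8 and 82.2 CPM against 55.1, 60.0 and 63.8 CPM. It too did not overlap (log2 fold change 0.30, SE 0.07, edgeR, adjusted p = 6.36e-04), and by header form it was 0.29 (adjusted p = 0.0202) and 0.32 (adjusted p = 0.022). Reads from Gm16754, an antisense gene that overlaps Keap1, may be included if counting ignored strand.

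Gclc was called at a log2 fold change of 0.24 (SE 0.08, edgeR, adjusted p = 0.0208), but its groups overlapped, with 83.2 to 113 CPM in ResKCs and 73.5 to 96.5 CPM in CLEC4F- macs. The call was lost, at log2 fold changes of 0.19 to 0.21, without ResKC replicate 3 (adjusted p = 0.0639) or 6 (0.0559), and without CLEC4F- mac replicate 1 (0.0901) or 2 (0.0785). It was also lost when libraries were scaled by their total alone (log2 fold change 0.12, adjusted p = 0.283), when both groups were fitted alone (0.23, adjusted p = 0.0957) and with the dissociation genes as a covariate (0.20, adjusted p = 0.0679). Of those 10 dissociation genes, 3 were called lower in ResKCs, with a median of -0.95. By header form it was 0.26 (adjusted p = 0.0977) and 0.22 (adjusted p = 0.223).

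Slc7a11 went the other way. CLEC4F- mac replicates 1 to 6 had 31.3, 13.7, 12.5, 3.87, 15.8 and 10.5 CPM, or 53 to 452 counts, whereas the highest ResKC library had 1.23 CPM. Slc7a11 exchanges glutamate for cystine, the precursor that the ligase needs as cysteine. It was lower in ResKCs by a log2 fold change of -4.91 (SE 0.63, edgeR, adjusted p = 1.81e-07). As Slc7a11 passed the filter through the recruited populations, its p-values between populations are in part set by the filter and serve as a description. All 10 alternative fits called the difference, but all except the one without a filter started from the same filtered genes. Their number is therefore no added support. By header form the value was -5.15 (adjusted p = 4.47e-05) and -4.54 (adjusted p = 6.1e-04). The highest library, CLEC4F- mac replicate 1, is the one rich in B cell markers, and without it the value was -4.56 (adjusted p = 1.18e-06).

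The other 4 members did not pass between ResKCs and CLEC4F- macs. Nfe2l2 was at 255 to 338 CPM and 300 to 356 CPM (log2 fold change -0.20, SE 0.10, edgeR, adjusted p = 0.151). Srxn1 (0.06) and Prdx1 (-0.14) had adjusted p of 0.747 and 0.327. Prdx1 passed at -0.26 (adjusted p = 0.0385) and Nfe2l2 at -0.32 (adjusted p = 0.00667) under scaling by total counts alone, which moved the median of all genes to -0.14. Nqo1 reached at most 27 counts in ResKCs and 51 counts in the other population (log2 fold change -1.14, SE 0.52, edgeR, adjusted p = 0.0907). It passed without ResKC replicate 6 (-1.62, adjusted p = 0.0199) or without CLEC4F- mac replicate 5 (-1.35, adjusted p = 0.0411).

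By group mean, moKCs lay between both populations for 7 of the 10 genes, all but Nfe2l2, Srxn1 and Prdx1. For Gclc, Keap1, Txnrd1 and Nqo1, edgeR called neither the step to ResKCs nor that to CLEC4F- macs. The share of all genes with moKCs in between is not given, so that this count is a description. Against moKCs, ResKCs had higher Gsr and Gclm and lower Slc7a11, whose call is in part set by the filter. Thus 2 of 10 were higher and 1 lower, where 2.00% and 0.991% of all genes were called. Without moKC replicate 1 these counts were 2 and 1 as well. Gsr had 195, 187, 257, 179 and 181 CPM in moKC replicates 1 to 5, all below the lowest ResKC library of 263 CPM. The log2 fold change was 0.62 (SE 0.13, edgeR, adjusted p = 0.00529), and 0.79 (adjusted p = 0.047) and 0.46 (adjusted p = 0.256) by header form. Gclm had 101, 103, 98.9, 113 and 95.1 CPM in moKCs, all below the lowest ResKC library of 114 CPM. Its log2 fold change was 0.31 (SE 0.08, edgeR, adjusted p = 0.0151), with 0.39 (adjusted p = 0.105) and 0.24 (adjusted p = 0.351) by header form. Without moKC replicate 5 the Gclm call was lost (0.29, adjusted p = 0.0559). In this comparison 1 of 4 macrophage markers was higher in ResKCs and 2 of 6 stellate cell markers were lower.

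Txnrd1 had 179, 270, 313, 282 and 310 CPM in moKCs, and 5 of 6 ResKC libraries lay above all of them. Replicate 1, the lowest, is the library that stood apart, and without it the log2 fold change was 0.46 (edgeR, adjusted p = 0.141). With all libraries, the log2 fold change of 0.58 (SE 0.17) did not pass (edgeR, adjusted p = 0.0591), and it did in DESeq2 (adjusted p = 0.0229), with the dissociation genes as a covariate (0.63, adjusted p = 0.0419) and without ResKC replicate 3 (edgeR, 0.65, adjusted p = 0.0381). By header form it was 0.92 (adjusted p = 0.0693) and 0.35 (adjusted p = 0.588). Slc7a11 had 1.74, 2.21, 0.749, 5.49 and 0.732 CPM in moKC replicates 1 to 5, or 10 to 69 counts, and 4 of 6 ResKC libraries lay below all of them. It passed narrowly (log2 fold change -2.17, SE 0.62, edgeR, adjusted p = 0.0494), and neither header form passed alone (-1.87, adjusted p = 0.426, and -2.43, adjusted p = 0.24). The call was lost without ResKC replicate 1, 2, 4 or 5 or without moKC replicate 2 or 4 (adjusted p of 0.0788 to 0.259). Without moKC replicate 4 the log2 fold change was -1.50, and without the others named it was -2.16 to -1.92. limma-voom did not call it (-2.42, adjusted p = 0.282). In edgeR the call was also lost without a filter (-2.16, adjusted p = 0.0749) and with both groups fitted alone (-2.16, adjusted p = 0.167). With the dissociation genes as a covariate it was lost at -1.63 (adjusted p = 0.208). Gclc, Keap1, Nfe2l2, Srxn1, Prdx1 and Nqo1 had adjusted p of 0.218 to 0.947.

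Against CLEC4F- macs, moKCs had higher Gclm and lower Slc7a11, whose call is in part set by the filter. This was 1 gene in each direction, where 9.34% of all genes were called higher and 7.09% lower. Other markers moved here too: 2 of 4 macrophage, 2 of 6 endothelial and 1 of 10 hepatocyte markers were higher in moKCs, whereas 2 of 3 B cell, 1 of 3 dendritic cell and the 1 cholangiocyte marker tested were lower. The Slc7a11 log2 fold change was -2.75 (SE 0.59, edgeR, adjusted p = 9.31e-04), with -3.28 (adjusted p = 0.0153) and -2.12 (adjusted p = 0.129) by header form. Without moKC replicate 4, its highest, it was -3.42 (adjusted p = 1.97e-04), and without CLEC4F- mac replicate 1 it was -2.38 (adjusted p = 0.00629). The highest moKC library, at 5.49 CPM, lay above the lowest CLEC4F- mac library, at 3.87 CPM, and the 4 other moKC libraries lay below all CLEC4F- macs. Gclm was higher in moKCs at 0.22 (SE 0.07, edgeR, adjusted p = 0.037), and its groups overlapped, at 95.1 to 113 and 75.3 to 99.98 CPM. That call was lost without any 1 of moKC replicates 1, 2 or 4 or CLEC4F- mac replicates 1, 2 or 5 (adjusted p of 0.055 to 0.144) and under scaling by total counts alone (0.14, adjusted p = 0.24), without a filter (0.24, adjusted p = 0.0648), with both groups fitted alone (0.21, adjusted p = 0.158) and with the hepatocyte genes as a covariate (0.21, adjusted p = 0.0541), and neither header form passed (0.28, adjusted p = 0.0912, and 0.16, adjusted p = 0.5). Gsr stood at 0.34 (SE 0.13, adjusted p = 0.0745) and passed with the hepatocyte genes as a covariate (0.37, adjusted p = 0.0456) and without CLEC4F- mac replicate 4 (0.45, adjusted p = 0.00798), the highest CLEC4F- mac library at 218 CPM and the one richest in ResKC markers.

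**Figure D3:**
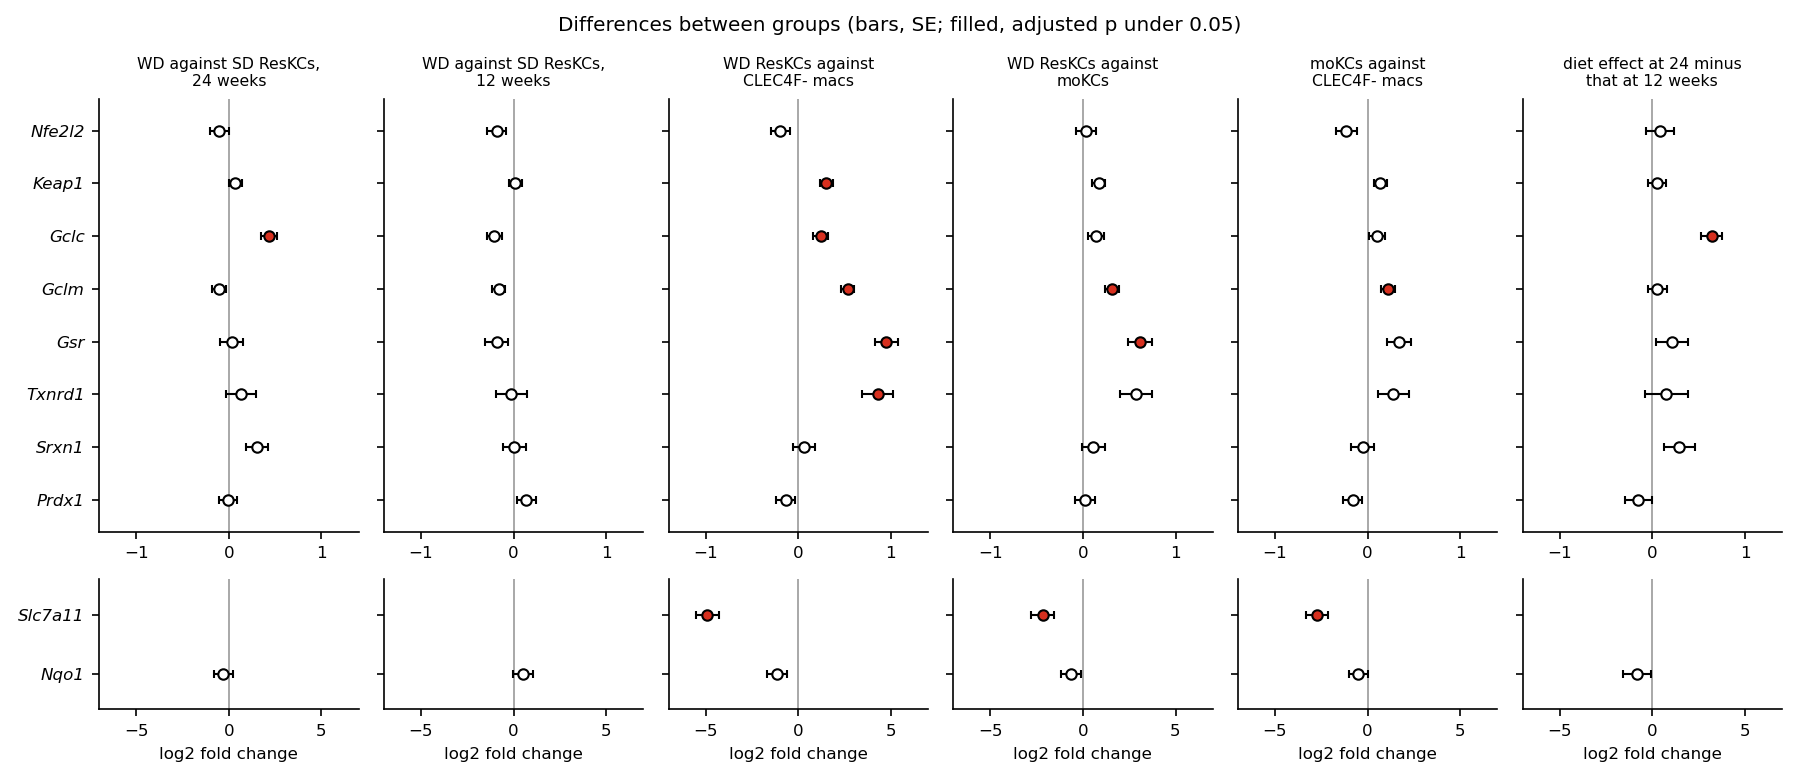
Log2 fold change (horizontal axes) with its SE for each gene (rows) in 6 comparisons (columns), on a wider scale for Slc7a11 and Nqo1; filled points passed at adjusted p under 0.05 in edgeR. Slc7a11 is not drawn where ResKCs alone are compared, as its counts there are at the limit of counting. Gclc alone is filled for the diet at 24 weeks (0.43), and 5 genes are filled to the right between ResKCs and CLEC4F- macs, with Slc7a11 to the left (-4.91).

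By group mean, the order of Gsr was WD ResKCs at 24 weeks (306 CPM), SD ResKCs at 24 weeks (300.2), SD ResKCs at 12 weeks (278), WD ResKCs at 12 weeks (245), moKCs (199.8) and CLEC4F- macs (158). Only the last 2 steps exceeded the larger SD of the neighbours. Gclm had the order SD ResKCs at 12 weeks (139 CPM), SD ResKCs at 24 weeks (137), WD ResKCs at 24 weeks (127), WD ResKCs at 12 weeks (124), moKCs (102) and CLEC4F- macs (87.5), and again only the last 2 steps exceeded the SD. For Txnrd1, only the step from WD ResKCs at 12 weeks (346 CPM) to moKCs (271 CPM) exceeded the SD. Gclc was highest in WD ResKCs at 24 weeks (100 CPM), but the step to moKCs (91.1 CPM) lay within the SD. Its only step beyond the SD was from SD ResKCs at 24 weeks (74.2 CPM) to WD ResKCs at 12 weeks (68.6 CPM). That gap of 5.6188 CPM all but equalled the larger SD of 5.6187 CPM. SD and WD ResKCs at 24 weeks are not neighbours in this order. For Nfe2l2, Keap1, Srxn1, Prdx1 and Nqo1, no neighbours in the order differed by more than the larger SD. In Slc7a11, this held for all steps but the one from CLEC4F- macs (14.6 CPM) to moKCs (2.18 CPM).

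Do the 10 genes vary together from library to library? Deviations from the group means were correlated for the 45 pairs over 35 libraries. Only Gsr and Txnrd1 passed, with a Pearson r of 0.68 (permutation test, 100000 resamples within groups, two-sided, adjusted p = 0.0018 over 45 pairs) and a Spearman rho of 0.63 (adjusted p = 0.0149). The r was 0.82 in the 22 libraries of the first header form and 0.52 in the 13 of the second. Without the 2 libraries farthest from the median of Gsr, r was 0.62 (permutation test, unadjusted p = 0.00237, adjusted p = 0.107 over the 45 pairs). ResKC WD replicate 1 at 24 weeks had the highest Gsr of all libraries (405 CPM) and also the highest Txnrd1 (578 CPM). Both genes code for NADPH-dependent reductases of the 2 thiol systems.

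Across all 35 libraries, groups included, the genes closest to each member by Pearson r of log2 CPM are given as a description. Gsr was closest to Hmox1, the haem oxygenase (r = 0.937), and Txnrd1 to Rell1 (0.863) and to Gsr (0.853). Gclm was closest to Hpgd (0.909), and Slc7a11 to Cxcl3 (0.94), Fabp5 (0.935) and Ccr2 (0.932), the last a marker of recruited monocytes that was also fixed as a CLEC4F- mac marker. Gclc was closest to D17Wsu92e (0.754), Cyp2b9 (0.732) and H2-Q1 (0.729), and Keap1 to Vps35l (0.809). Prdx1 was closest to its copy Gm21399 (0.928). Nfe2l2 reached 0.733 (Xbp1), Srxn1 0.743 (Gpr137b) and Nqo1 0.668 (Jchain, a gene of antibody-secreting cells). Libraries of a group share its mean, which enters these values.

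The wider antioxidant list held 94 further genes of the same pathways, of which 87 were tested. At 24 weeks of WD, 2 of the 87 were higher and 11 lower in ResKCs, where 4.84% and 3.87% of all genes were called, with a median log2 fold change of -0.08 against 0.00 over all genes. Gstm3, a glutathione transferase with 0 to 13 counts in the SD libraries and 29 to 178 on WD, rose from a mean of 0.468 to 5.90 CPM (log2 fold change 3.62, SE 0.70, edgeR, adjusted p = 0.00144), and Gpx3, a secreted glutathione peroxidase, rose from 145 to 266 CPM (0.87, SE 0.24, adjusted p = 0.0208). Each of the 6 WD libraries lay above all SD libraries for both, which is a description, as both were picked by their call. Gstm5 fell from 9.50 to 4.22 CPM (-1.17, SE 0.22, edgeR, adjusted p = 8.61e-04). Gstp1 fell from 61.1 to 43.3 CPM (-0.50, SE 0.12, adjusted p = 0.00991), and Fth1, the ferritin heavy chain, from 6351 to 4647 CPM (-0.45, SE 0.11, adjusted p = 0.011). The 8 others that fell lay at -0.27 to -0.41. Reads of the transferases and of Fth1 may be split with near-identical family members or pseudogenes. With the mean of the immediate-early and heat-shock list as a covariate, 0 of the 87 were called higher and 4 lower, and under scaling by total counts alone 7 were higher and 7 lower. With the mean of the hepatocyte list as a covariate, 3 were higher and 10 lower. At 12 weeks, edgeR, DESeq2 and limma-voom called none of the 87 (with the hepatocyte covariate 1 was lower). In edgeR, 2 higher and 3 lower had an unadjusted p under 0.05, as had 1172 of all 13421 genes in either direction.

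Between ResKCs and CLEC4F- macs, 30 of the 87 were higher and 7 lower, where 17.0% and 16.1% of all genes were called, with a median of 0.10 against -0.02 over all genes. Without CLEC4F- mac replicate 1 these were 26 and 7, and without replicate 4 they were 32 and 8. Of the other NRF2 targets, 12 of 23 were higher and 1 lower. Hmox1, which opens the haem ring, averaged 2321 CPM against 740 CPM (log2 fold change 1.65, SE 0.18, edgeR, adjusted p = 1.23e-08). Ephx1, the microsomal epoxide hydrolase, averaged 341 against 89.0 CPM (1.94, SE 0.21, adjusted p = 5.7e-09). The 5 largest differences were completed by Gstp2 (3.52, SE 0.38, adjusted p = 7.49e-09), Oplah, which recovers glutamate from oxoproline (1.85, SE 0.18, adjusted p = 7.71e-10), and Gpx7 (1.61, SE 0.27, adjusted p = 1.17e-05). Of these genes, each of the 6 ResKC libraries lay above all CLEC4F- macs. As they were picked by the size of this difference, the separation is a description and no further support. Among 10 thioredoxin and peroxiredoxin genes 4 were higher and none lower, and 7 had an unadjusted p under 0.05 in edgeR, 6 of them higher. Of all 13421 genes, 5559 passed at that limit in either direction. Among 6 NADPH oxidase genes, which make superoxide, 2 were higher and 2 lower. Scaling by total counts alone gave 24 higher and 10 lower.

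Between ResKCs and moKCs, fewer of these genes were called, 6 higher and 1 lower in ResKCs, where 2.00% and 0.991% of all genes were called (7 and 2 without moKC replicate 1). The 5 with the largest difference were Gstp2 (1.69, SE 0.36, edgeR, adjusted p = 0.00532), Hmox1 (1.16, SE 0.19, adjusted p = 2.72e-04), Gsta4 (1.04, SE 0.27, adjusted p = 0.0247), the haem transporter Slc48a1 (0.91, SE 0.14, adjusted p = 7.46e-05) and Oplah (0.88, SE 0.18, adjusted p = 0.00383). Gstp2 had 2.23, 2.63 and 18.4 CPM as lowest, median and highest moKC library. Its moKC mean of 5.90 CPM thus rests largely on 1 high library, which makes the difference from ResKCs smaller. Hmox1, picked by the size of its difference, was at 2321 CPM in ResKCs and 1038 CPM in moKCs, with all 6 ResKC libraries above all moKCs. Between moKCs and CLEC4F- macs, 20 were higher in moKCs and 2 lower, where 9.34% and 7.09% of all genes were called. Without CLEC4F- mac replicate 4 these were 22 and 4, without moKC replicate 1 they were 20 and 2, by total counts alone 17 and 5, and with both groups fitted alone 15 and 2. With all libraries, the largest were Gstp2 (1.82, SE 0.39, edgeR, adjusted p = 9.12e-04), Ephx1 (1.53, SE 0.21, adjusted p = 3.24e-06), Gpx7 (1.34, SE 0.27, adjusted p = 5.96e-04), Gpx3 (1.01, SE 0.25, adjusted p = 0.00409) and Oplah (0.98, SE 0.18, adjusted p = 1.64e-04). The high moKC library raises the Gstp2 value here, where CLEC4F- macs had 0.726 to 2.92 CPM. Value and rank of Gstp2 without that library are not given. The 3 comparisons share their libraries in pairs and are not independent of each other. Neither the time comparison in SD ResKCs nor the difference of the diet effects gave a call among the 87 in edgeR. For the latter, DESeq2 and the hepatocyte covariate called 1 higher each and the header covariate 3 lower. An unadjusted p under 0.05 in edgeR was reached by 6 genes (5 higher) over time and by 18 genes (5 higher) for the difference. Of all 13421 genes, 1208 and 1886 passed at that limit in either direction.

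**Figure D4:**
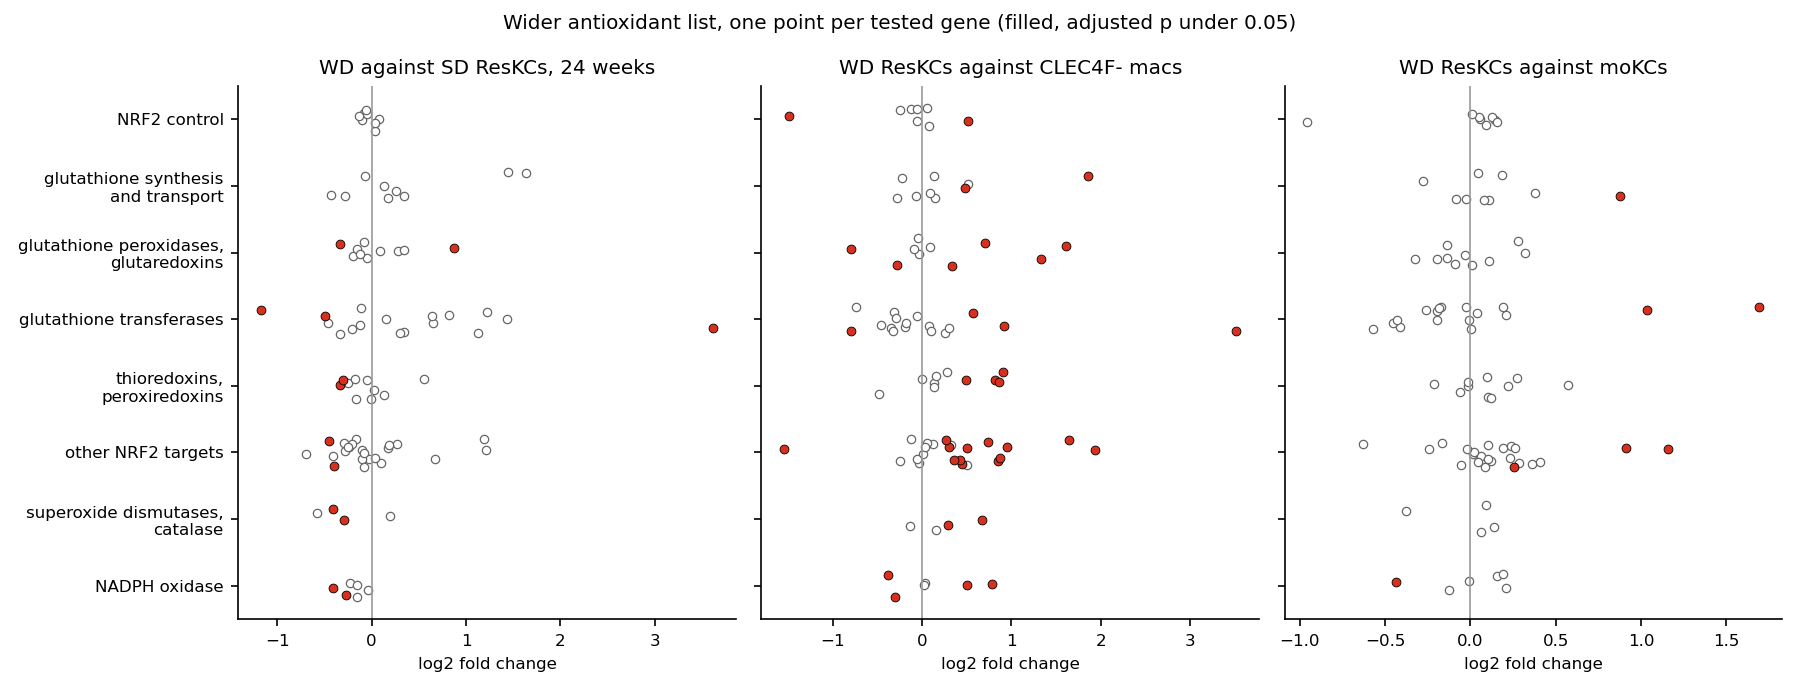
Log2 fold change (horizontal axes) of the 87 tested genes of the wider antioxidant list by gene group (rows, points spread vertically for visibility) in 3 comparisons; filled points passed at adjusted p under 0.05 in edgeR. Filled points lie mostly left of 0 for the diet at 24 weeks (2 higher, 11 lower) and mostly right of 0 for ResKCs against CLEC4F- macs (30 higher, 7 lower).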

How the data were processed

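The authors sequenced libraries on a NextSeq (75-base single reads) and deposited raw read counts per gene symbol, 1 table per library; per the labels, reads were mapped to mm10 with HISAT2 (2.2.0) and counted with featureCounts (2.0.0). Whether counting used strand is not given in the sources used here. From these counts, genes over 1 CPM in at least 5 libraries were kept and 1 model with 6 group means was fitted over 35 libraries in edgeR (4.0.16; TMM factors, quasi-likelihood test, Benjamini-Hochberg adjustment over 13421 genes, threshold 0.05). CPM are counts per 1000000 of the TMM-scaled library, and the log2 scale uses a prior count of 2. Correlations were tested by permutation within groups. The text names all 10 members, the called genes of the wider list (at most the 5 largest per comparison, the others by count) and the genes most like each member. The members and lists were chosen with earlier results of these data known. Alternatives were DESeq2 (1.42.0), limma-voom (3.58.1), scaling by totals, no filter, robust dispersion, the compared groups alone, a replicate block, limits of 1 on the log2 fold change, covariates (dissociation genes, hepatocyte genes, header form), and leaving out each library. Gene positions and exon lengths are from GENCODE M21 (mm10), promoter sequences from RefSeq (GRCm38.p6). One macrophage marker is not reported here.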

Additional observations from a re-analysis of the deposited data

Results flagged for a closer look

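The diet effect on Gclc in ResKCs differed between the times: its log2 fold change at 24 weeks exceeded that at 12 weeks by 0.64 (edgeR interaction contrast, adjusted p = 0.00934). Gclc was at 74.2 CPM on SD and 100 CPM on WD at 24 weeks, and at 79.1 and 68.6 CPM at 12 weeks.

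In 8 of the 60 groups of values (10 genes in 6 groups), 1 library lay far from the others by Dixon's test, where chance alone gives about 5%. For Gsr these were ResKC WD replicate 1 at 24 weeks (405 CPM, the others 263 to 316), moKC replicate 3 (257 CPM, the others 179 to 195) and CLEC4F- mac replicate 4 (218 CPM, the others 140 to 160). Txnrd1 was high in the same CLEC4F- mac replicate 4 (269 CPM, the others 204 to 220) and in ResKC WD replicate 1 at 12 weeks (456 CPM, the others 299.9 to 331). CLEC4F- mac replicate 4 also had the most ResKC markers of its group (12198 CPM, the others 1295 to 5550) and the fewest CLEC4F- mac markers (440 CPM, the others 992 to 1597), and their part in its Gsr and Txnrd1 values was not tested. Keap1 was high in ResKC SD replicate 7 at 12 weeks (83.8 CPM, the others 66.4 to 73.2) and low in ResKC WD replicate 3 at 12 weeks (63.0 CPM, the others 74.3 to 78.4). Those 2 libraries had the highest hepatocyte sums of their groups, 3280 and 3369 CPM, whereas over all 35 libraries the within-group correlation of Keap1 with the hepatocyte list did not pass (Pearson r = -0.044, permutation test, adjusted p = 0.858, Spearman rho = -0.16, adjusted p = 0.692). Srxn1 was high in ResKC SD replicate 5 at 24 weeks (58.5 CPM, the others 44.8 to 48.6).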

How the results depend on the processing

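Of 837 results under alternative settings, 774 were labelled the same. For a fold change or a correlation, this means the same direction and side of the threshold, also where it was never called. For a count of genes it means a similar number, within which single calls could change. The total is thus no measure of how stable the calls are. Gclc was called for the diet at 24 weeks and for the difference of the diet effects under each of the 10 alternative fits and without each library in turn. With limits of 1 on the log2 fold change, the members called higher fell to 0 for the diet at 24 weeks, the difference of the diet effects, and ResKCs against CLEC4F- macs or moKCs and moKCs against CLEC4F- macs. Scaling by totals gave 2 higher for the diet at 24 weeks, 3 lower for ResKCs against CLEC4F- macs, and 0 higher and 2 lower for moKCs against CLEC4F- macs. For ResKCs against moKCs, limma-voom, no filter, the compared groups alone and the dissociation covariate left 0 lower. For moKCs against CLEC4F- macs, no filter and the compared groups alone left 0 higher, and with the hepatocyte covariate the 1 higher was Gsr in place of Gclm. The longer motif left 1 gene, and leaving out 2 libraries left 0 correlated pairs (Gsr and Txnrd1, r = 0.62). Where not given, the cause was not tested.

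Replicate numbers were not taken as pairs (mean correlation of same-numbered deviations -0.112 to 0.117 over 6 comparisons, in none of which every pair exceeded 0.1). For ResKCs against CLEC4F- macs the correlations were 0.0242 to 0.263, with 4 of 6 over 0.1. Whether libraries of one number share a mouse is not known. With the replicate block, 0 members were called higher or lower for ResKCs against moKCs and for moKCs against CLEC4F- macs, although the fold changes were no smaller (Gsr 0.66, Gclm 0.33 and Slc7a11 -2.72 in the former, with adjusted p of 0.0737, 0.127 and 0.228; Gclm 0.23 and Slc7a11 -3.004 in the latter, 0.222 and 0.0627), 2 were lower for ResKCs against CLEC4F- macs (Nfe2l2, -0.22, adjusted p = 0.0424), and Txnrd1 turned to -0.033 for SD ResKCs over time and Nfe2l2 to -0.0038 against moKCs. In the wider list the block called 8 higher and 8 lower for the diet at 24 weeks, 30 and 11 for ResKCs against CLEC4F- macs, 5 and 0 against moKCs, and 12 and 0 for moKCs against CLEC4F- macs.

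Without 1 library in turn, members called ranged from 1 to 2 lower for ResKCs against CLEC4F- macs, from 1 to 3 higher and 0 to 1 lower against moKCs, and from 0 to 2 higher for moKCs against CLEC4F- macs. In the wider list, 2 to 4 were lower for moKCs against CLEC4F- macs without CLEC4F- mac replicate 1 or 4 or moKC replicate 1, and 2 for ResKCs against moKCs without moKC replicate 1, alternatives chosen after seeing the data. Fold changes near 0 turned sign without 1 library, all of them uncalled. For the diet at 24 weeks these were Gsr (-0.067 to 0.092), Txnrd1 (-7.9e-05 to 0.27) and Prdx1 (-0.041 to 0.0088). At 12 weeks they were Keap1 (-0.0064 to 0.068), Txnrd1 (-0.14 to 0.036) and Srxn1 (-0.051 to 0.068). Between populations they were Srxn1 (-0.012 to 0.13) against CLEC4F- macs, Nfe2l2 (-0.023 to 0.073) and Prdx1 (-0.090 to 0.10) against moKCs, and Srxn1 (-0.12 to 0.028) in moKCs. Over time they were Gclm (-0.044 to 0.0095) and Txnrd1 (-0.070 to 0.14), and for the difference of the diet effects Gclm (-0.0034 to 0.091).

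Other uncalled signs turned too. For the diet at 24 weeks Nfe2l2 was 0.023 with the dissociation covariate and Prdx1 0.065 by totals. At 12 weeks Txnrd1 was 0.028 and 0.12 with the dissociation and hepatocyte covariates, and Srxn1 -0.0015 (DESeq2), -5.8e-04 (limma-voom), -0.0086 (no filter), -0.0085 (compared groups alone) and -0.073 (header covariate). By totals, Srxn1 was -0.067 against CLEC4F- macs, and Nfe2l2 -0.0042 and Prdx1 -0.014 against moKCs. With the header covariate, the differences of the diet effects were -0.021 for both Nfe2l2 and Keap1.

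Nqo1 and Slc7a11 in ResKCs are limited by counting: 3 counts equal about 0.2 CPM.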
